A study of Mus musculus with 40 samples.

Results

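The secreted gelatinases *Mmp2* and *Mmp9*, the membrane-bound metalloproteinases *Mmp14* and *Mmp23*, the furin-activated *Mmp11*, the soluble *Mmp19* and the tissue inhibitors *Timp1*, *Timp2*, *Timp3* and *Timp4* were followed across cultured mouse cardiac fibroblasts. These 10 genes were taken from a fixed list of symbols, out of 55414 genes in the count table, and all 10 were among the 25210 genes with at least 10 reads in total that were tested. The fibroblasts came from adult C57BL/6J_TAK1fl/fl mice, in which LoxP sites flank an exon of *Map3k7*, the gene of the kinase TAK1, so every group carried the floxed allele. At passage 1 they received an adenovirus driving iCre from the CMV promoter, which deletes the exon, or the matching LacZ adenovirus, which leaves TAK1 intact. Both sets were then serum-starved and left without ligand (CTRL) or given bFGF at 20 ng/ml, TGFβ at 10 ng/ml, IL-1β at 15 ng/ml or TNFα at 10 ng/ml for 24 h. This gave 10 groups with 4 replicates each, 40 poly-A RNA libraries in all. The medium in which all cells were grown before starvation also held bFGF, and the CMV promoter is active in any cell the virus enters, so the deletion is not restricted to one cell type.

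Matrix metalloproteinases are zinc enzymes that cut collagens, gelatin and other matrix proteins, and most leave the cell as inactive proenzymes. TIMPs bind the active enzymes and block them. The families also work together, since TIMP-2 held by MT1-MMP, the product of *Mmp14*, presents proMMP-2 for activation at the cell surface, while TIMP-1 binds proMMP-9. In the heart, fibroblasts are a main source of MMP-2, MT1-MMP and the TIMPs, whereas MMP-9 is best known from neutrophils and macrophages of the injured myocardium. Transcript levels measure neither secreted protein nor enzyme activity.

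The libraries held 25360947 to 66160732 counted reads (median 36183962). *Map3k7* averaged 153 CPM ± 6.51 (SD, n = 4) in LacZ CTRL and 127 ± 4.27 in iCre CTRL fibroblasts, and every iCre library lay below every LacZ library under each treatment. The log2 difference ran from -0.28 (CTRL, adjusted p = 0.137, and 0.00393 with the block) to -0.82 (IL-1β, adjusted p = 0.000274). *Map3k7* itself rose with each ligand in LacZ fibroblasts, by 0.39 to 0.64 (edgeR adjusted p from 0.000231 to 0.0324). In iCre fibroblasts its changes ran from 0.00 with IL-1β to 0.25 with bFGF, and none passed without the block. Since reads over all exons are counted, the deleted exon itself was not measured. Fibroblast markers dominated, with 10 fixed genes such as *Col1a1* and *Pdgfra* summing to 15351 to 69714 CPM per library, against 71.2 to 1918 CPM for 3 mural cell genes, 16.3 to 156 CPM for 5 macrophage genes, 0.299 to 110 CPM for 3 cardiomyocyte genes, 0.746 to 13.4 CPM for 3 endothelial genes and 0 to 1.32 CPM for 5 neutrophil genes, of which *S100a9* was at 0 in every group. In bulk RNA, fewer cells of a type and less RNA per cell cannot be told apart. Libraries with the same replicate number deviated together in all 15 pairs of groups checked, so results for the 10 genes with replicate number as a block are given beside the unblocked ones. Replicate 2 stood apart for several of the genes described here. The 12 iCre libraries given TGFβ, IL-1β or TNFα also differed from the other 28 in how counts depended on GC content, and for the 10 genes the values corrected for GC content are given where they change a call of the unblocked test, with the changes to blocked calls beside the blocked counts.

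In unstimulated LacZ fibroblasts *Timp2*, *Timp1* and *Mmp2* were the most abundant transcripts of the set. On a scale that divides CPM by the exonic length in kilobases, so that genes can be compared, the mean level was 746 for *Timp2*, 632 for *Timp1*, 581 for *Mmp2*, 202 for *Timp3* and 108 for *Mmp14*. *Mmp23*, *Mmp11* and *Mmp19* followed at 58.4, 44.3 and 42.3 CPM per kb, and *Mmp9* and *Timp4* were near the bottom of the measured range at 0.665 and 0.0447. Across the 10 groups *Timp3* and *Mmp9* varied most among the 9 genes other than *Timp4*, the highest group mean being 26.3 times and 24 times the lowest, while *Mmp14* and *Mmp23* varied least, at 1.61 and 1.71 times. The order of group means separated few neighbours. Of 9 neighbouring pairs per gene, the ranges of the libraries were apart in 2 for *Timp2*, in 1 each for *Mmp2*, *Mmp9* and *Timp3*, and in 0 for the other 6 genes.

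**Figure D1:**
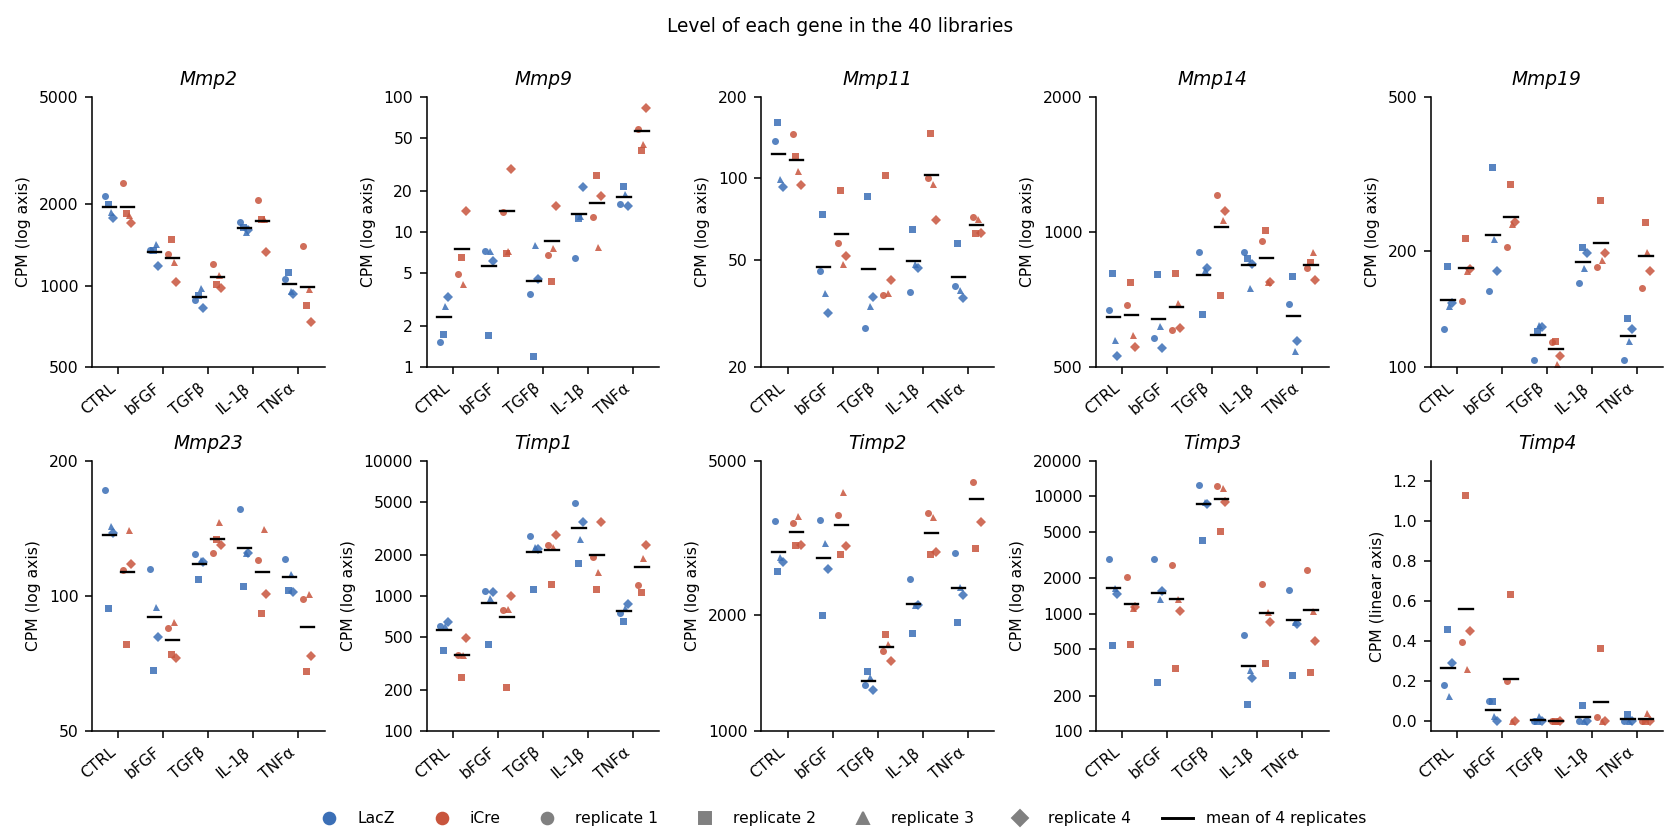
CPM of each of the 10 genes in every library (vertical axis, log scale except for *Timp4*) by treatment, with LacZ libraries in blue, iCre libraries in red, a symbol per replicate number and a black bar at the mean of 4 replicates. *Timp3* is highest with TGFβ (group means 8613 and 9477 CPM), *Mmp9* with TNFα in iCre fibroblasts (56.4 CPM), and *Timp4* is below 1 CPM in all but 1 library, with its highest means in the CTRL groups (0.264 CPM in LacZ and 0.559 in iCre fibroblasts).

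TGFβ changed the inhibitors in opposite directions. In LacZ fibroblasts 2 of the 10 genes rose (*Timp1*, *Timp3*) and 4 fell (*Mmp2*, *Mmp11*, *Timp2*, *Timp4*), while 36.9% of all genes tested were called by the same rule (edgeR quasi-likelihood test, Benjamini-Hochberg adjusted p at or below 0.05). In iCre fibroblasts 3 rose (*Mmp14*, *Timp1*, *Timp3*) and 5 fell (*Mmp2*, *Mmp11*, *Mmp19*, *Timp2*, *Timp4*), beside 37.4% of all genes. The median log2 fold change over the 10 genes was -0.24 in LacZ and -0.23 in iCre fibroblasts, against -0.17 and -0.11 over all genes tested, and 0.01 and 0.03 in the same fits over genes averaging 1 CPM or more. With the block 7 passed in LacZ (42% of all genes) and 8 in iCre fibroblasts (41.5%). The summed level of the 3 mural cell genes (*Rgs5*, *Cspg4*, *Kcnj8*) moved with TGFβ as well, from 101 to 551 CPM in LacZ CTRL to 645 to 1165 CPM with TGFβ, without overlap, and from 285 to 893 CPM to 729 to 1918 CPM in iCre fibroblasts, with 1 of the 3 called higher and 1 lower in each background. Of the 5 macrophage genes 1 was called lower with TGFβ in each background. Their sums went from 49.8 to 144 CPM in LacZ CTRL to 23.1 to 87.6 CPM with TGFβ, and from 28.1 to 80.7 CPM to 16.3 to 59.2 CPM in iCre fibroblasts. In iCre fibroblasts 1 neutrophil gene was called higher, at sums of 0 to 0.179 CPM in CTRL and 0.0331 to 0.296 CPM with TGFβ. The part of these markers in the TGFβ results was not tested.

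*Timp3*, whose product stays bound to the extracellular matrix and inhibits ADAM proteases as well as MMPs, had the largest TGFβ response of the set apart from the barely detected *Timp4*. In LacZ fibroblasts the CTRL libraries held 2912, 537, 1659 and 1470 CPM (replicates 1 to 4) and the TGFβ libraries 12598, 4274, 8941 and 8639 CPM. The groups did not overlap, and all 4 same-numbered pairs rose. The log2 fold change was 2.40 (SE 0.49, edgeR adjusted p = 0.00298), and in iCre fibroblasts it was 2.99 (SE 0.41, adjusted p = 0.000207), from 2044, 550, 1125 and 1128 CPM to 12165, 5079, 11673 and 8992 CPM. *Timp3* lies at chr10:86300372-86349506 (GRCm38, + strand) within *Syn3*, which is transcribed from the other strand and covers 21.28% of the exonic bases of *Timp3*. *Syn3* had at most 229 reads in a library, against 456584 for *Timp3*, and was also higher with TGFβ in LacZ fibroblasts, by 1.77 (SE 0.45, adjusted p = 0.0102).

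*Timp1*, a secreted inhibitor that binds proMMP-9 and inhibits most soluble MMPs, also rose with TGFβ. LacZ libraries went from 600, 401, 601 and 643 CPM without ligand to 2803, 1130, 2294 and 2224 CPM, a log2 fold change of 1.93 (SE 0.27, edgeR adjusted p = 0.000318). iCre libraries went from 364, 250, 366 and 487 CPM to 2405, 1219, 2301 and 2832 CPM, a log2 fold change of 2.6 (SE 0.28, adjusted p = 4.04e-05). Neither comparison had overlapping groups, and replicate 2 was the lowest library in each of the 4 groups. *Timp1* lies at chrX:20870166-20874735 (GRCm38, + strand) inside an intron of *Syn1* on the other strand, with 0 shared exonic bases. The 200 bases that end 51 bases before the RefSeq start sites of *Timp1* and *Timp3* are shown because these 2 inhibitors rose together with TGFβ, with CG dinucleotides in capitals (RefSeq windows, GRCm38.p6, 5′ to 3′ on the + strand).
Timp1, chrX:20869916-20870115: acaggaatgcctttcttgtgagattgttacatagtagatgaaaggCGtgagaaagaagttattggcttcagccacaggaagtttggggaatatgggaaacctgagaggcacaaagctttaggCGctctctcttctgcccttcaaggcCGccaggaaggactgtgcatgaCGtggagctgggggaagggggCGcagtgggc
Timp3, chr10:86300162-86300361: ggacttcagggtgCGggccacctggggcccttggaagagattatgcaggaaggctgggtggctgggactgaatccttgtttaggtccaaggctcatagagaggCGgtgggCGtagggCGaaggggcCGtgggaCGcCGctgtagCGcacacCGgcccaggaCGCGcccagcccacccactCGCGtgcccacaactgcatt
The *Timp3* stretch held 13 CG dinucleotides and 65.5% GC, and the *Timp1* stretch held 5 and 52.5%, against a median of 4 CG dinucleotides over all 32851 RefSeq promoter windows. Windows of 300 bases were found for 7 of the 10 genes (8 windows), and none for *Mmp2*, *Mmp9* or *Mmp19*. Both strands were searched for the NF-κB consensus, the AP-1 motif TGANTCA and the SMAD motif CAGACA, which occur in 8.46%, 7.81% and 21.0% of all windows and were found in 0, 0 and 1 (*Timp4*) of these 8.

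*Timp2*, which both inhibits MMPs and serves in MT1-MMP-dependent activation of proMMP-2, fell with TGFβ. LacZ libraries held 3487, 2595, 2815 and 2735 CPM without ligand and 1313, 1429, 1383 and 1274 CPM with TGFβ, and the iCre libraries 3446, 3027, 3593 and 3039 CPM and 1612, 1785, 1684 and 1521 CPM. The 4 TGFβ replicates lay close together and far below CTRL. The log2 fold changes were -1.09 (SE 0.13, edgeR adjusted p = 0.000124) in LacZ and -0.97 (SE 0.11, adjusted p = 7.79e-05) in iCre fibroblasts. *Timp2* lies at chr11:118301069-118355740 on the - strand and overlaps *Cep295nl* on the same strand, with 0 shared exonic bases.

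*Mmp2*, the constitutively secreted gelatinase A of mesenchymal cells, fell with 3 of the 4 ligands in LacZ fibroblasts. Its CTRL libraries held 2153, 2011, 1882 and 1787 CPM, the bFGF libraries 1361, 1353, 1425 and 1180, the TGFβ libraries 884, 927, 978 and 828, and the TNFα libraries 1058, 1121, 957 and 933. None of these 3 groups overlapped CTRL, and the TGFβ and TNFα groups also lay below the bFGF group. The log2 fold changes were -0.54 with bFGF (SE 0.12, edgeR adjusted p = 0.0168), -1.10 with TGFβ (SE 0.11, adjusted p = 4.24e-05) and -0.94 with TNFα (SE 0.11, adjusted p = 0.000292). With IL-1β the libraries held 1576 to 1725 CPM, also below every CTRL library, a difference of -0.24 from CTRL that did not pass without the block (adjusted p = 0.174) and did with it (adjusted p = 0.0227). In iCre fibroblasts *Mmp2* fell by 0.84 with TGFβ (adjusted p = 0.000598) and by 0.94 with TNFα (adjusted p = 0.00752), while the difference of -0.62 with bFGF had an adjusted p of 0.0679 (5.64e-05 with the block). The bFGF call in LacZ fibroblasts was lost without replicate 1, 3 or 4 (adjusted p from 0.0895 to 0.114), and the TNFα call in iCre fibroblasts without replicate 3 (-0.97, adjusted p = 0.0544). *Mmp2* lies at chr8:92827291-92853420 on the + strand.

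*Mmp11*, which encodes stromelysin-3, an enzyme secreted in active form after cleavage by furin, was the only gene of the set that passed the unblocked test downward with all 4 ligands in LacZ fibroblasts. CTRL libraries held 138, 162, 99.2 and 93.1 CPM. With TNFα they held 39.9, 57.8, 38.7 and 36.1 CPM, with IL-1β 37.9, 65.1, 48.3 and 46.7, with bFGF 45.3, 73.8, 37.5 and 31.7, and with TGFβ 27.8, 86.2, 33.6 and 36.2. Replicate 2 was the highest library in each of these groups, yet no ligand group overlapped CTRL. The log2 fold changes were -1.36 with bFGF (SE 0.27, edgeR adjusted p = 0.0120), -1.40 with TGFβ (SE 0.33, adjusted p = 0.00759), -1.30 with IL-1β (SE 0.20, adjusted p = 0.00146) and -1.51 with TNFα (SE 0.20, adjusted p = 0.000729). In iCre fibroblasts *Mmp11* fell by 1.08 with TGFβ (SE 0.31, adjusted p = 0.0198) and by 0.77 with TNFα (SE 0.13, adjusted p = 0.00211), and the TGFβ libraries, at 36.8, 103, 37.7 and 41.9 CPM, overlapped the CTRL range of 94.7 to 146 CPM through replicate 2. The TNFα call in iCre fibroblasts was lost in a fit of all 40 libraries (-0.80, adjusted p = 0.0537). Without replicate 2 the TGFβ value was -1.75 in LacZ and -1.55 in iCre fibroblasts. The TGFβ call was lost without replicate 1 in LacZ (-1.16, adjusted p = 0.0522) and without replicate 1, 3 or 4 in iCre fibroblasts (adjusted p from 0.0696 to 0.127). The bFGF call was lost without replicate 1, 3 or 4 (adjusted p from 0.0569 to 0.0789). *Mmp11* lies at chr10:75923222-75936496 on the - strand and shares 155 exonic bases with *Chchd10* on the other strand, which had at most 189 reads in a library.

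With bFGF no other gene of the set passed edgeR's unblocked test. In LacZ fibroblasts 2 of the 10 genes were called, *Mmp2* and *Mmp11*, both downward, beside 11.6% of all genes. Unadjusted p was under 0.05 for 7, beside 6443 of the 25210 genes tested, and DESeq2 called 5, beside 4672 of 24927 genes. The uncalled differences there included *Timp4* at -2.17, *Mmp9* at 1.26, *Timp1* at 0.68, *Mmp23* at -0.59 and *Mmp19* at 0.58 (adjusted p from 0.0901 to 0.141). In iCre fibroblasts 0 of the 10 passed edgeR's test, beside 2.42% of all genes. There 5 had an unadjusted p under 0.05, beside 4213 of the 25210 genes tested, and DESeq2 called 2, beside 1998 of 24826 genes. With replicate number as a block, 7 passed in LacZ fibroblasts (27.3% of all genes) and 6 in iCre fibroblasts (16.7%), those added in both backgrounds being *Mmp9* (log2 fold changes 1.16 and 0.87), *Mmp19* (0.53 and 0.44), *Timp1* (0.62 and 0.78) and *Mmp23* (-0.58 and -0.46). In the blocked fit *Mmp2* and *Mmp11* passed in iCre fibroblasts as well, at -0.62 and -0.93, and *Timp4* in LacZ fibroblasts.

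With the inflammatory ligands *Mmp9* rose and *Mmp11* fell in LacZ fibroblasts. In LacZ fibroblasts IL-1β raised *Mmp9* and *Timp1* and lowered *Mmp11*, *Timp3* and *Timp4*, 5 of 10 beside 20.7% of all genes. There TNFα raised *Mmp9* and lowered *Mmp2*, *Mmp11* and *Timp4*, 4 of 10 beside 21.3%. Unadjusted p was under 0.05 for 8 with IL-1β and 6 with TNFα, beside 8198 and 8306 of the 25210 genes tested. DESeq2 called 9 and 5, beside 6653 of 24869 and 6773 of 24875 genes. In iCre fibroblasts IL-1β changed only *Timp1* in edgeR's test, 1 of 10 beside 16.3%. There 4 genes had an unadjusted p under 0.05, beside 7191 of 25210, and DESeq2 called 3, beside 5512 of 24830. TNFα in iCre fibroblasts raised *Mmp9*, *Mmp14* and *Timp1* and lowered *Mmp2*, *Mmp11* and *Timp4*, 6 of 10 beside 27% of all genes. With the block the counts were 9 with IL-1β (33.5% of all genes) and 9 with TNFα (35.5%) in LacZ fibroblasts, and 7 (33.8%) and 8 (36.1%) in iCre fibroblasts. Of the 3 mural cell genes in LacZ cells, IL-1β lowered 2 and TNFα 1, and the sums were 101 to 551 CPM in CTRL, 251 to 768 given IL-1β and 71.2 to 367 given TNFα. In iCre fibroblasts 1 rose and 1 fell with TNFα, and the sums were 285 to 893 CPM in CTRL and 301 to 1154 given TNFα. Their part in these responses was not tested. With GC correction added to the block the iCre counts were 8 and 6, beside 29.4% and 34.2% of all genes, since with IL-1β *Mmp2* (-0.36, adjusted p = 0.000155) and *Timp2* (-0.18, adjusted p = 0.0223) passed and *Mmp19* did not (0.15, adjusted p = 0.0889), and with TNFα *Mmp14* and *Timp2* (0.10, adjusted p = 0.481) did not.

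Several responses to these ligands passed with the block but not in edgeR's unblocked test of all 4 replicates. DESeq2, run without a block, called *Timp2* and *Mmp19* in LacZ and *Mmp14* in iCre fibroblasts with IL-1β (adjusted p = 0.0156, 0.0285 and 0.0245). Without replicate 2 edgeR's unblocked test called the same genes there (adjusted p = 0.0431, 0.022 and 0.031). It also called *Mmp23* with TNFα in LacZ and *Timp4* with IL-1β in iCre fibroblasts (adjusted p = 0.0122 and 0.00359). *Timp3* under TNFα in LacZ fibroblasts was at 1580, 297, 852 and 809 CPM, below CTRL in all 4 pairs but with overlapping groups, a difference of -0.90 (edgeR adjusted p = 0.288) that was -0.89 with the block (SE 0.05, adjusted p = 1.60e-10). *Timp2* in LacZ fibroblasts was lower in all 4 pairs with IL-1β (-0.44, adjusted p = 0.0747, and 8.24e-05 with the block) and with TNFα (-0.31, adjusted p = 0.209 and 5.32e-05), and in iCre fibroblasts it was higher with TNFα in 3 of 4 pairs (0.29 with the block, adjusted p = 0.0302). *Mmp14* in iCre fibroblasts was higher with IL-1β in all 4 pairs (0.45, adjusted p = 0.0541 and 3.27e-08), and corrected for GC content it was at 0.25 (adjusted p = 0.311, and 0.00228 with the block). In the blocked fit *Mmp19* was at 0.34 (IL-1β) and -0.31 (TNFα) in LacZ and at 0.23 (IL-1β) in iCre fibroblasts, and *Mmp23* with TNFα at -0.29 in LacZ and -0.36 in iCre fibroblasts. With IL-1β in iCre fibroblasts the block also added *Mmp11* (-0.19, adjusted p = 0.0337, and -0.40 with GC correction) and the barely detected *Timp4* (adjusted p = 5.30e-06, and 0.159 without the block).

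*Mmp9*, gelatinase B, was a low transcript in these cultures. LacZ libraries held 1.54, 1.76, 2.84 and 3.28 CPM without ligand, 6.46, 12.8, 13.1 and 21.5 CPM with IL-1β, and 16.1, 22.1, 19 and 15.7 CPM with TNFα. Both ligand groups lay wholly above CTRL. The log2 fold changes were 2.52 with IL-1β (SE 0.37, edgeR adjusted p = 0.00117) and 2.95 with TNFα (SE 0.25, adjusted p = 5.70e-05). Neutrophil markers moved with IL-1β, the 5 genes summing to 0 to 0.0291 CPM in LacZ CTRL and 0.434 to 1.32 CPM with IL-1β, with 1 called higher and *S100a9* and *Ly6g* at 0. Under TNFα their sum was 0.0553 to 0.136 CPM. Of the 5 macrophage genes 1 was called higher with IL-1β, and the sums overlapped, at 49.8 to 144 CPM in CTRL, 46.9 to 156 given IL-1β and 40.8 to 154 given TNFα. Their part in the *Mmp9* result was not tested. In iCre fibroblasts TNFα raised *Mmp9* from 4.88, 6.52, 4.15 and 14.3 CPM to 58, 40.6, 44.6 and 82.4 CPM, by 2.96 (SE 0.41, adjusted p = 0.000704). The IL-1β libraries there, at 12.9, 26.4, 7.79 and 18.6 CPM, overlapped CTRL (1.15, SE 0.44, adjusted p = 0.113, and 1.18, SE 0.12, with adjusted p = 1.65e-17 in the blocked fit). The rise with IL-1β was uneven, from 6.52 to 26.4 CPM in replicate 2 and from 14.3 to 18.6 in replicate 4. The blocked SE and p rest on 4 pairs and understate this spread. In the blocked fit 3 of the 5 macrophage genes were called higher in iCre fibroblasts with IL-1β and 3 with TNFα, and 1 neutrophil gene with IL-1β. Their part in the iCre rises was not tested. *Mmp9* lies at chr2:164940780-164955850 on the + strand, its lowest library held 51 reads and its highest 2542.

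*Timp1* separated the 2 inflammatory ligands in LacZ fibroblasts. With IL-1β its libraries held 4913, 1765, 2646 and 3517 CPM, all above the CTRL range of 401 to 643 CPM, a log2 fold change of 2.53 (SE 0.31, edgeR adjusted p = 0.000423). With TNFα they held 744, 650, 821 and 876 CPM, also above CTRL in every library but by 0.46 (SE 0.16, adjusted p = 0.0710, and 0.48 with adjusted p = 7.40e-06 in the blocked fit). The direct comparison of IL-1β with TNFα gave 2.05 (SE 0.28, adjusted p = 0.00111). In iCre fibroblasts both ligands raised *Timp1*, to 1950, 1129, 1508 and 3530 CPM with IL-1β (2.49, SE 0.35, adjusted p = 0.00152) and to 1214, 1063, 1912 and 2406 CPM with TNFα (2.20, SE 0.29, adjusted p = 0.000623), and IL-1β and TNFα differed there by 0.30 (SE 0.37, adjusted p = 0.736). *Syn1*, the host gene of *Timp1*, was higher with IL-1β in LacZ fibroblasts as well, by 1.82 (SE 0.19, adjusted p = 0.000169), at 8.57 CPM ± 1.17 against 3210 ± 1342 for *Timp1* (SD, n = 4).

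*Timp3* moved against *Timp1* with IL-1β in LacZ fibroblasts. The CTRL libraries held 2912, 537, 1659 and 1470 CPM and the IL-1β libraries 659, 171, 328 and 281 CPM, so that the groups overlapped only through the low replicate 2 of CTRL. The log2 fold change was -2.19 (SE 0.52, edgeR adjusted p = 0.0141), with all 4 pairs lower. The call was lost without replicate 3 or without replicate 4 (adjusted p = 0.0930 and 0.0833, each at -2.13). In iCre fibroblasts the IL-1β libraries held 1777, 377, 1035 and 849 CPM against 2044, 550, 1125 and 1128 CPM in CTRL, a difference of -0.24 (SE 0.46, adjusted p = 0.793, and -0.30 with adjusted p = 0.000288 in the blocked fit). *Syn3* fell with IL-1β in LacZ fibroblasts too, by 2.56 on the log2 scale (SE 0.40, adjusted p = 0.00170), to 0.214 CPM ± 0.0813 (SD, n = 4).

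Of the membrane-bound enzymes, *Mmp14* rose by 0.68 with TGFβ (SE 0.17, edgeR adjusted p = 0.00939) and by 0.41 with TNFα (SE 0.13, adjusted p = 0.0374) in iCre fibroblasts. Its libraries held 688, 774, 590 and 555 CPM in iCre CTRL, 1212, 722, 1062 and 1111 with TGFβ and 833, 857, 902 and 780 with TNFα. With TGFβ replicate 2 ran the other way, from 774 down to 722 CPM, while the other 3 pairs were higher with TGFβ. The TGFβ call was lost without replicate 3 or 4 (0.61 and 0.57, adjusted p = 0.0743 and 0.0747). The TNFα call was lost without replicate 1, 3 or 4 (adjusted p from 0.0642 to 0.241), with RLE scaling (adjusted p = 0.0515), without a filter on low counts (adjusted p = 0.0518) and in a fit of all 40 libraries (adjusted p = 0.0645). Corrected for GC content the TGFβ value was 0.49 (adjusted p = 0.0485) and the TNFα value 0.20 (adjusted p = 0.279), and 0.22 with the block as well (adjusted p = 0.0858). In LacZ fibroblasts the differences were 0.34 with TGFβ (adjusted p = 0.107), 0.40 with IL-1β (adjusted p = 0.0641, and 0.42 with adjusted p = 0.000253 in the blocked fit) and 0.02 with TNFα (adjusted p = 0.972). *Mmp23*, which encodes a type II membrane protease released by furin-like cleavage, had a smallest adjusted p of 0.0916 in edgeR's unblocked test over the 19 comparisons made. Corrected for GC content, without the block, it passed in 2 of them, lower with TNFα than in CTRL in iCre fibroblasts (-0.55, adjusted p = 0.0489, against -0.37 with adjusted p = 0.185 uncorrected) and lower after TAK1 deletion under TNFα (-0.64, adjusted p = 0.00825). The iCre libraries held 114, 78.2, 140 and 118 CPM in CTRL and 98.3, 68.1, 101 and 73.5 CPM with TNFα, and the LacZ libraries 121, 103, 112 and 102 CPM with TNFα, so that all iCre TNFα libraries lay below those of LacZ while CTRL and TNFα overlapped in iCre fibroblasts. Its group means ran from 79.8 CPM ± 7.40 (iCre bFGF) to 137 ± 32.3 (LacZ CTRL, SD, n = 4). *Mmp14* lies at chr14:54431612-54445364 on the + strand and *Mmp23* at chr4:155650655-155653384 on the - strand.

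*Mmp19*, a secreted enzyme that cuts basement membrane proteins, had its highest group means with bFGF, 220 CPM ± 76.8 in LacZ and 244 ± 39.0 in iCre fibroblasts (SD, n = 4), against 149 ± 23.8 and 180 ± 27.8 in CTRL. The differences of 0.58 and 0.44 passed with the block but not without it (edgeR adjusted p = 0.126 and 0.140). Leaving out replicate 2, they passed the unblocked test too, at 0.40 and 0.43 (adjusted p = 0.0442 and 0.0234). *Mmp19* fell with TGFβ in iCre fibroblasts, from 148, 216, 177 and 179 CPM to 116, 117, 102 and 107 CPM, by 0.69 (SE 0.11, adjusted p = 0.000707). In LacZ fibroblasts the TGFβ difference was -0.29 (adjusted p = 0.0673, -0.28 with adjusted p = 0.0156 in the blocked fit, and -0.32 with adjusted p = 0.0399 with GC correction alone). *Mmp19* lies at chr10:128790910-128800824 on the + strand, and 22.33% of its exonic bases are shared with *Tmem198b* on the other strand, which had up to 3678 reads in a library, and 6% with the antisense gene *Gm47093*, which had at most 11. The strand setting of the counting is not given in the sources used here, so reads in the shared bases may not be separable.

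*Timp4*, an inhibitor known for its expression in heart muscle, was close to absent, with 211 reads over the 40 libraries and 0 in 21 of them. LacZ CTRL held 46 reads in all and iCre CTRL 75, or 0.179, 0.461, 0.124 and 0.291 CPM and 0.393, 1.13, 0.259 and 0.452 CPM by replicate. With TGFβ the sums were 1 and 0 reads, with TNFα 1 and 2, with IL-1β 3 and 21, and with bFGF 8 and 54, in LacZ and iCre fibroblasts. Replicate 2 supplied 20 of the 21 reads of iCre IL-1β and 47 of the 54 of iCre bFGF. TGFβ and TNFα lowered *Timp4* in both backgrounds (edgeR adjusted p = 0.00245 and 0.00715 in LacZ, 0.00187 and 0.00225 in iCre), and IL-1β in LacZ fibroblasts (adjusted p = 0.0298). The 0 reads of iCre TGFβ allow a level of up to 0.0208 CPM (3 reads over the summed totals of the 4 libraries, not TMM-scaled), which covers counting error only. The calls were lost without replicate 4 for TNFα (adjusted p = 0.0560) and without replicate 1, 3 or 4 for IL-1β (adjusted p from 0.0895 to 0.149) in LacZ fibroblasts, and for IL-1β in a fit of all 40 libraries as well (adjusted p = 0.0602). The summed level of 3 cardiomyocyte genes (*Myh6*, *Tnnt2*, *Actn2*) moved with it in LacZ fibroblasts, from 14.7 to 110 CPM in CTRL to 2.85 to 14.4 with TGFβ, 0.299 to 1.67 with IL-1β and 0.944 to 6.65 with TNFα, with *Myh6* at 0 in every LacZ CTRL library. In iCre fibroblasts it ran from 6.67 to 44 CPM in CTRL, from 3.29 to 12.9 with TGFβ and from 0.5 to 19.7 with TNFα. *Myh6* had too few reads to be tested, and 1 of the other 2 genes was called lower with each of these 3 ligands in LacZ and with TGFβ and TNFα in iCre fibroblasts. Their part in the result was not tested. *Timp4* lies at chr6:115241892-115252205 on the - strand inside *Syn2*, with which it shares 90 exonic bases.

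**Figure D2:**
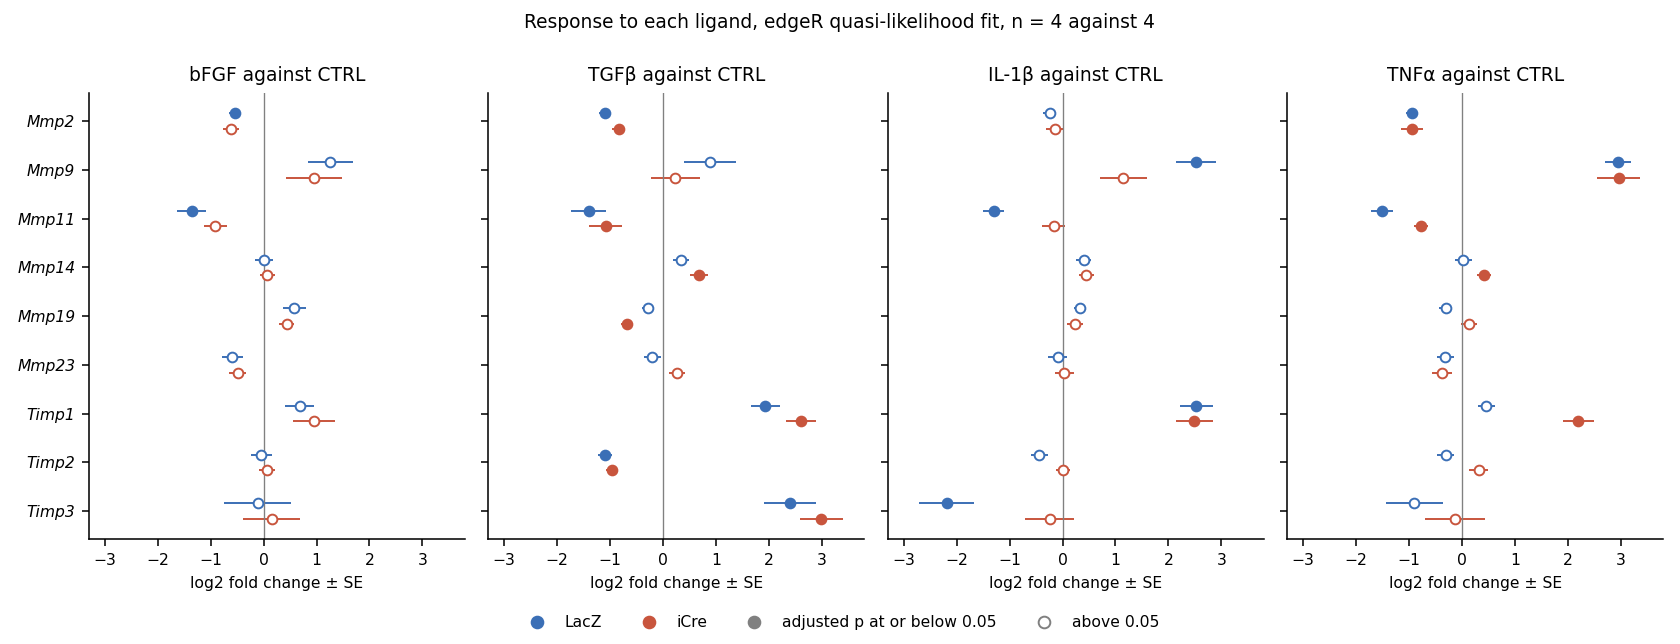
Log2 fold change with its standard error (horizontal axis) of the 9 genes other than *Timp4* for each ligand against CTRL, in LacZ (blue) and iCre (red) fibroblasts, n = 4 against 4, filled where edgeR's adjusted p was at or below 0.05. *Timp1* and *Timp3* lie far to the right with TGFβ, *Mmp11* lies to the left in every panel, and *Timp1* with TNFα is 0.46 in LacZ and 2.20 in iCre fibroblasts.

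Without ligand and with bFGF or TGFβ, none of the 10 genes differed between iCre and LacZ fibroblasts in edgeR's unblocked test, beside 0.0754%, 0% and 8.37% of all genes. Unadjusted p was under 0.05 for 2, 1 and 2 of the 10, beside 3538, 2585 and 5333 of the 25210 genes tested. DESeq2 called 1, 0 and 1, beside 1346 of 24880, 481 of 24858 and 3788 of 24050 genes. With replicate number as a block 5, 4 and 4 passed, beside 14.5%, 13.9% and 20.8% of all genes. Under that fit *Mmp9* was higher in iCre fibroblasts in CTRL (1.54, SE 0.21, adjusted p = 0.000108), with bFGF (1.29, SE 0.23, adjusted p = 0.000517) and with TGFβ (1.07, SE 0.24, adjusted p = 0.00292). *Timp1* was lower in CTRL (-0.64, SE 0.07, adjusted p = 8.78e-06) and with bFGF (-0.47, SE 0.10, adjusted p = 0.00359), each iCre library lying below the LacZ library of the same number. The CTRL libraries of *Mmp9*, 1.54 to 3.28 CPM in LacZ and 4.15 to 14.3 CPM in iCre fibroblasts, did not overlap (unblocked 1.65, SE 0.42, adjusted p = 0.134). The remaining calls with the block were *Mmp19* (0.26), *Mmp23* (-0.29) and *Timp3* (-0.37) in CTRL, *Mmp11* (0.42) and *Timp2* (0.30) with bFGF, and *Mmp11* (0.23), *Mmp14* (0.31) and *Timp2* (0.26) with TGFβ. With GC correction added to the block only *Mmp9* of the 4 genes with TGFβ passed (0.83, adjusted p = 0.0443), beside 9.31% of all genes, and *Mmp11*, *Mmp14* and *Timp2* were at -0.03, 0.10 and 0.06.

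With IL-1β, *Mmp11* and *Timp2* were higher in iCre than in LacZ fibroblasts, 2 of 10 beside 16.1% of all genes. *Mmp11* was at 99.9, 147, 94.9 and 70.2 CPM in iCre and 37.9, 65.1, 48.3 and 46.7 CPM in LacZ fibroblasts, with no overlap, a log2 difference of 1.04 (SE 0.21, edgeR adjusted p = 0.00788). *Timp2* was at 3659, 2873, 3578 and 2911 CPM against 2472, 1798, 2124 and 2122 CPM, also with no overlap, a difference of 0.60 (SE 0.16, adjusted p = 0.0302). Corrected for GC content it was 0.40 (adjusted p = 0.175, and 0.00154 with the block as well), and the call was also lost without replicate 1, 3 or 4 (adjusted p from 0.0563 to 0.194). *Mmp11* was lost without replicate 3 (1.06, adjusted p = 0.0618). *Timp3* was higher in iCre fibroblasts in all 4 pairs, 1777, 377, 1035 and 849 CPM against 659, 171, 328 and 281, but replicate 2 of iCre lay within the LacZ range. The difference was 1.47 (SE 0.48, adjusted p = 0.0667) without the block, 1.44 (SE 0.09, adjusted p = 1.01e-09) with it and unblocked 1.54 without replicate 1 or without replicate 2 (adjusted p = 0.0336 and 0.00796), 1.41 without replicate 3 (adjusted p = 0.251) and 1.44 without replicate 4 (adjusted p = 0.201). The blocked fit also called *Timp1* lower in iCre fibroblasts (-0.71, SE 0.14, adjusted p = 0.000672), which held in 3 of the 4 pairs, for 4 of 10 in all beside 29.5% of all genes, and with GC correction in the same fit *Mmp23* was called lower too (-0.46, SE 0.09, adjusted p = 0.00123).

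With TNFα, 5 of the 10 genes were higher in iCre fibroblasts and 0 lower, beside 14.8% of all genes higher and 12.6% lower. They were *Mmp9* (1.65, SE 0.22, edgeR adjusted p = 0.000624), *Timp1* (1.11, SE 0.25, adjusted p = 0.00789), *Timp2* (0.79, SE 0.21, adjusted p = 0.0174), *Mmp19* (0.71, SE 0.13, adjusted p = 0.00307) and *Mmp11* (0.66, SE 0.14, adjusted p = 0.00750). In none of the 5 did the iCre and LacZ libraries overlap. *Mmp9* was at 40.6 to 82.4 CPM in iCre and 15.7 to 22.1 CPM in LacZ fibroblasts, *Timp1* at 1063 to 2406 and 650 to 876 CPM, and *Timp2* at 4413, 2977, 5126 and 3482 against 2882, 1909, 2364 and 2244 CPM. *Mmp19* was at 160, 238, 199 and 177 against 104, 134, 117 and 125 CPM, and *Mmp11* at 71.9, 62.9, 70.6 and 62.9 against 39.9, 57.8, 38.7 and 36.1 CPM. Corrected for GC content *Timp2* was at 0.56 (adjusted p = 0.0748) and *Mmp11* at 0.38 (adjusted p = 0.0814), and with the block as well at 0.55 (adjusted p = 0.00717) and 0.40 (adjusted p = 0.0417). GC correction without the block thus left 3 genes higher and made 1 lower, *Mmp23* (-0.64, adjusted p = 0.00825), beside 11.1% of all genes higher and 11% lower. In a fit of all 40 libraries the call of *Mmp11* was lost (0.64, adjusted p = 0.133). Without replicate 3 the calls of *Timp1* (1.06, adjusted p = 0.0659), *Timp2* (0.65, adjusted p = 0.129) and *Mmp11* (0.58, adjusted p = 0.0776) were lost, and *Timp2* also without replicate 4 (0.83, adjusted p = 0.0708). The blocked fit added *Mmp14* (0.41, adjusted p = 0.0249) and *Mmp23* (-0.36, adjusted p = 0.0146), 7 of 10 beside 32.2% of all genes, and of these 2 *Mmp23* passed with GC correction in the same fit (-0.66, adjusted p = 0.000748) and *Mmp14* did not (0.18, adjusted p = 0.296).

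Markers of other cells moved with the same comparisons. All 3 fixed mural cell genes were more abundant under TNFα after TAK1 deletion, their sum running from 301 to 1154 CPM against 71.2 to 367 CPM, 2 of 3 were higher with IL-1β (395 to 945 against 251 to 768 CPM), and 1 of 3 with TGFβ (729 to 1918 against 645 to 1165 CPM). Of the cardiomyocyte genes 1 was higher in iCre fibroblasts with IL-1β, and the sums did not overlap, at 1.93 to 16.3 CPM against 0.299 to 1.67 CPM. In the blocked fit, beside the member calls it made without ligand, iCre libraries had 2 fibroblast genes higher and 7 lower, 3 macrophage genes and 1 cardiomyocyte gene lower and 2 mural cell genes higher, and with bFGF 5 fibroblast and 2 macrophage genes and 1 cardiomyocyte gene were lower and 2 mural cell genes higher. The part of these markers in the results for the members was not tested. Of the 5 macrophage genes 1 was higher in iCre fibroblasts with TNFα and the sum was no higher, 33.9 to 114 CPM against 40.8 to 154 CPM in LacZ fibroblasts. The neutrophil genes summed to 0.0389 to 0.571 CPM in iCre and 0.0553 to 0.136 CPM in LacZ fibroblasts with TNFα. Among 10 fibroblast genes, deletion of TAK1 went with 2 higher and 5 lower under TNFα, 0 and 3 under IL-1β, and 0 and 2 under TGFβ. In the blocked fit with TGFβ 5 fibroblast genes and 1 macrophage gene were lower and 1 mural cell gene was higher. Their part was not tested either. In iCre TNFα, *Mmp9* was at 40.6 and 44.6 CPM in the 2 replicates with the lower *Lyz2* (22.6 and 24.2 CPM) and at 58 and 82.4 CPM in those with the higher *Lyz2* (94 and 89.6 CPM), *Lyz2* being the lysozyme gene of macrophages. In LacZ TNFα, where *Lyz2* ran from 30.4 to 129 CPM, the highest *Mmp9* was in the library with the lowest *Lyz2*.

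**Figure D3:**
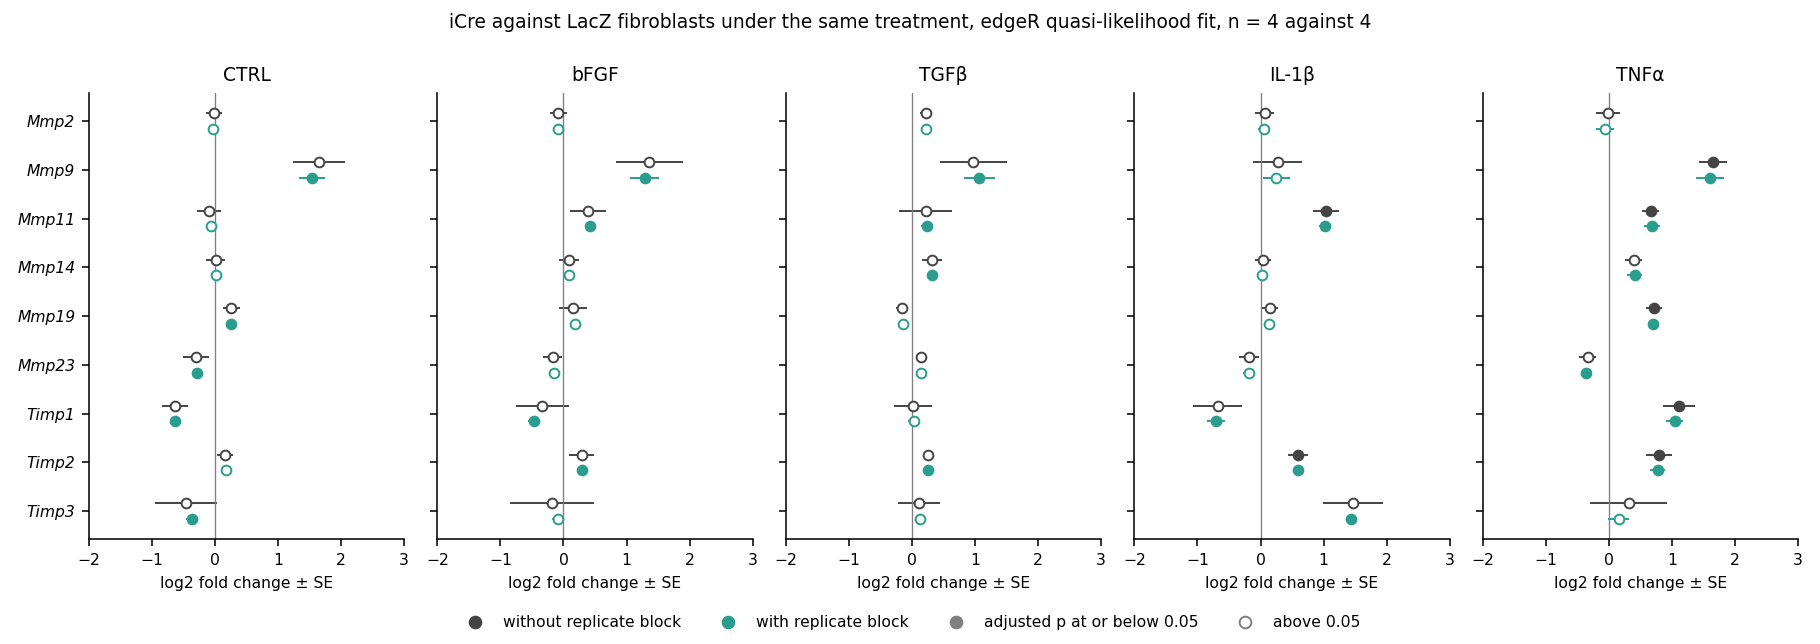
Log2 difference between iCre and LacZ fibroblasts with its standard error (horizontal axis) for the 9 genes other than *Timp4* under each treatment, n = 4 against 4, without (grey) and with (teal) replicate number as a block, filled where edgeR's adjusted p was at or below 0.05. Both fits give similar differences, mostly with smaller errors under the block. *Mmp9* is higher in iCre fibroblasts by 1.65 in CTRL and with TNFα but by 0.27 with IL-1β.

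The interaction term asked whether a ligand acted differently once TAK1 was deleted. *Timp1* passed with TNFα, where the effect was 2.20 in iCre and 0.46 in LacZ fibroblasts, an interaction of 1.73 (SE 0.35, edgeR adjusted p = 0.00318), beside 16.1% of all genes. It was 1.63 (adjusted p = 0.0683) without replicate 3. *Mmp11* passed with IL-1β, where it fell in LacZ fibroblasts and was at -0.17 in iCre fibroblasts (1.12, SE 0.31, adjusted p = 0.0381), beside 7.71% of all genes, and this call was lost without replicate 1, 3 or 4 (adjusted p from 0.0626 to 0.183) with GC correction (0.93, adjusted p = 0.121) and in a fit of all 40 libraries (1.13, adjusted p = 0.138). With bFGF and TGFβ 0 of 10 passed, beside 0% and 4.51% of all genes. Unadjusted p was under 0.05 for 0 and 1 of the 10, beside 765 and 3839 of the 25210 genes tested. DESeq2 called 0 with either ligand, beside 0 of 25157 and 2187 of 25133 genes.

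With the block, the interaction passed for 2 genes under TGFβ, for 4 under IL-1β and for 5 under TNFα, beside 8.04%, 16.9% and 25.1% of all genes. *Timp3* with IL-1β had the largest of these, 1.80 (SE 0.15, edgeR adjusted p = 2.06e-07, against 1.93 with SE 0.76 and adjusted p = 0.159 unblocked), followed by *Timp1* with TNFα (1.69, SE 0.17, adjusted p = 7.67e-06) and *Mmp9* with IL-1β (-1.20, SE 0.40, adjusted p = 0.0448). The others were *Mmp11* (1.06) and *Timp2* (0.43) with IL-1β, *Mmp11* (0.74), *Timp2* (0.60), *Mmp19* (0.43) and *Mmp14* (0.40) with TNFα, and *Timp1* (0.65) and *Mmp19* (-0.42) with TGFβ. With GC correction in the same fit, 6 of the 11 passed, while the share of all gene tests over the 4 ligands went from 12.5% to 9.32%. The 5 that did not were *Timp1* (0.50, adjusted p = 0.121) and *Mmp19* (-0.44, adjusted p = 0.0533) with TGFβ, *Timp2* with IL-1β (0.26, adjusted p = 0.0882), and *Mmp11* (0.50, adjusted p = 0.0519) and *Mmp14* (0.18, adjusted p = 0.316) with TNFα. *Timp2* with TNFα passed at 0.40 (adjusted p = 0.0460).

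IL-1β and TNFα were also compared directly. In LacZ fibroblasts *Timp1* (2.05), *Mmp2* (0.69, SE 0.10, edgeR adjusted p = 0.00242) and *Mmp19* (0.64, SE 0.10, adjusted p = 0.00265) were higher with IL-1β, 3 of 10 beside 9.62% of all genes. *Mmp2* held 1725, 1654, 1576 and 1604 CPM with IL-1β and 933 to 1121 CPM with TNFα, and *Mmp19* held 165, 204, 180 and 197 CPM and 104 to 134 CPM, without overlap. In iCre fibroblasts *Mmp9* was lower with IL-1β than with TNFα (-1.79, SE 0.36, adjusted p = 0.0306), 1 of 10 beside 2.65% of all genes, a call lost without replicate 1, 3 or 4 (adjusted p from 0.0917 to 0.139). With the block 8 passed in LacZ and 5 in iCre fibroblasts, beside 24.2% and 17.1% of all genes, among them *Timp3*, lower with IL-1β in LacZ fibroblasts (-1.24, SE 0.08, edgeR adjusted p = 9.59e-13), and *Mmp2*, higher in iCre fibroblasts (0.83, SE 0.09, adjusted p = 2.64e-05). With GC correction in the same fit 7 passed in LacZ fibroblasts, beside 24.5% of all genes, *Timp2* being added (-0.16, adjusted p = 0.0308) and *Mmp11* (adjusted p = 0.0917) and *Mmp23* (adjusted p = 0.07) lost.

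The replicates kept an order of their own. *Timp3* was lowest in replicate 2 and highest in replicate 1 in 10 of 10 groups, and *Timp1* was lowest in replicate 2 in 10 of 10. *Mmp19* was lowest in replicate 1 in 9 groups and highest in replicate 2 in 9, *Mmp2* was lowest in replicate 4 in 9, *Mmp11* was highest in replicate 2 in 8, and *Timp2* was lowest in replicate 2 in 8. For *Timp3* the 4 LacZ CTRL libraries thus spanned 537 to 2912 CPM, while all 4 rose with TGFβ. The library numbers of replicate 1 run from 31 to 40 and those of the other replicates from 51 to 80, and what else the numbers stand for is not given in the sources used here.

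**Figure D4:**
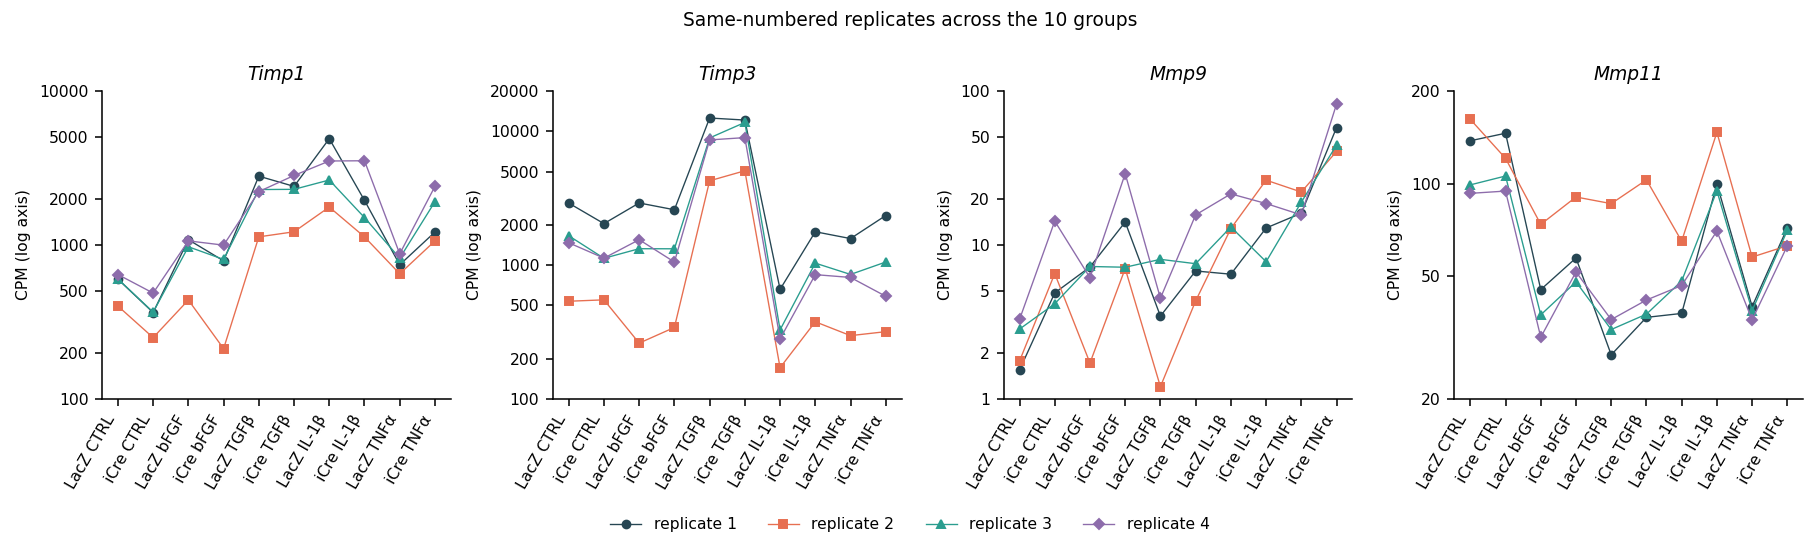
CPM (vertical axis, log scale) of *Timp1*, *Timp3*, *Mmp9* and *Mmp11* in each of the 10 groups, with a line per replicate number. Replicate 2 is the lowest line for *Timp3* and *Timp1* throughout and the highest for *Mmp11* in 8 of 10 groups, and the lines of *Timp3* run nearly in parallel.

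The ratio of a protease to its binding partner within a library was compared for 3 pairs. The *Mmp2* to *Timp2* ratio ran from 0.367 to 0.587 in LacZ and from 0.190 to 0.317 in iCre fibroblasts with TNFα, a mean log2 difference of -0.83, and with IL-1β from 0.698 to 0.920 and from 0.457 to 0.616, a difference of -0.55. The *Mmp9* to *Timp1* ratio ran from 0.00257 to 0.00511 in LacZ CTRL, from 0.0113 to 0.0294 in iCre CTRL and from 0.0179 to 0.0340 in LacZ TNFα, differences from LacZ CTRL of 2.19 and 2.53. The *Mmp14* to *Timp2* ratio ran from 0.192 to 0.312 in LacZ CTRL and from 0.460 to 0.687 with TGFβ, a difference of 1.42, and lay at 0.354 to 0.487 with IL-1β, 0.85 above CTRL. Of 27 two-sided exact permutation tests, 9 reached the smallest p that 4 against 4 allows, 0.0286, and after Benjamini-Hochberg adjustment these stood at 0.0857, so none passed. Within same-numbered pairs the smallest p is 0.125.

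**Figure D5:**
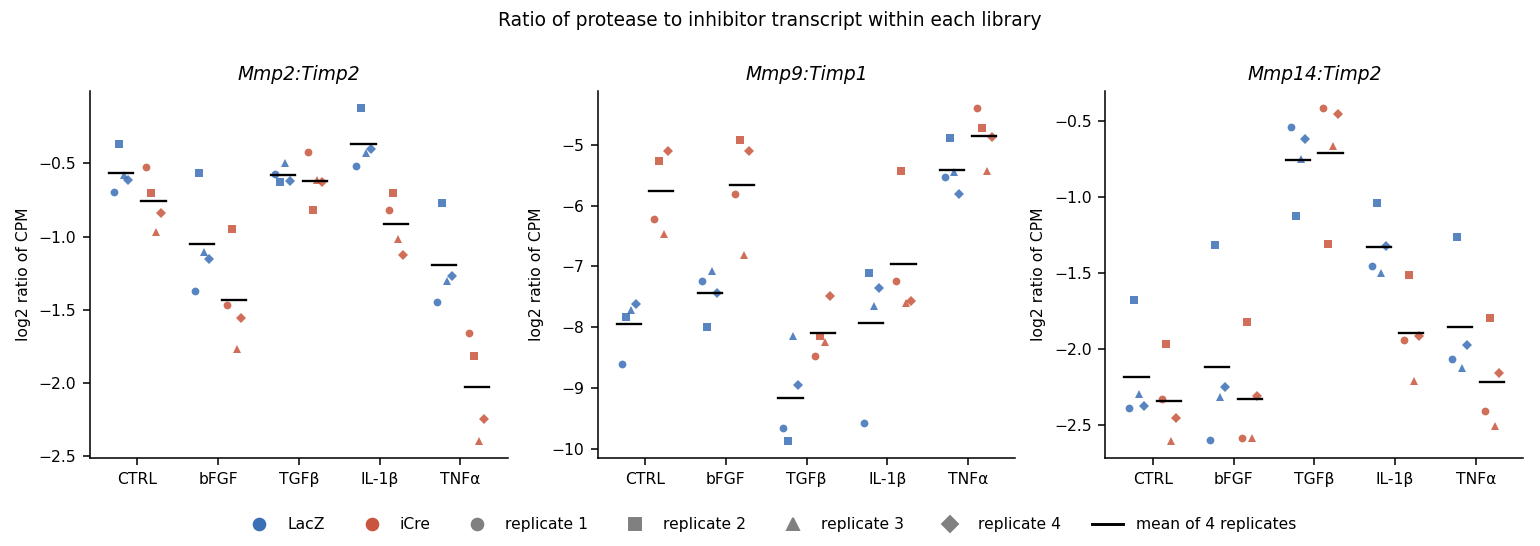
Log2 ratio of the CPM of *Mmp2* to *Timp2*, *Mmp9* to *Timp1* and *Mmp14* to *Timp2* within each library (vertical axis) by treatment, LacZ in blue, iCre in red, a symbol per replicate and a bar at the mean of 4 replicates. *Mmp2* to *Timp2* is lowest in iCre TNFα (mean -2.03), and *Mmp14* to *Timp2* is highest with TGFβ (-0.76 in LacZ and -0.71 in iCre fibroblasts).

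Of 7 other MMPs, most of them membrane-bound, 6 were tested, with group means of at most 74.9 CPM. *Mmp15*, a membrane-type MMP, fell with TGFβ, IL-1β and TNFα in LacZ fibroblasts (-2.0, -1.35 and -0.91, edgeR adjusted p = 0.000458, 0.00702 and 0.0157), from 13.2 CPM ± 3.16 to 3.28 ± 1.43, 5.18 ± 1.89 and 7 ± 1.74 (SD, n = 4). In iCre fibroblasts with TGFβ, *Mmp17* (1.22) and *Mmp28* (0.98) rose and *Mmp15* (-1.75) and *Mmp16* (-1.25) fell. The call of *Mmp17* was lost with GC correction (1.02, adjusted p = 0.0781) but passed with the block as well (0.97, adjusted p = 0.02). With TNFα *Mmp16* and *Mmp17* were lower after TAK1 deletion, with differences of -1.31 and -1.14, 2 of 6, beside 12.6% of all genes lower, at a list median of -0.80 against 0.00 over all genes tested and 0.07 over genes averaging 1 CPM or more. With GC correction *Mmp16* did not pass (-1.0, adjusted p = 0.0766), and with the block as well it did (-1.05, adjusted p = 0.000966). *Mmp24*, which passed downward with TGFβ in LacZ fibroblasts (-2.73, adjusted p = 0.0440, and 0.1 with the block), and *Mmp25* had group means of at most 0.144 and 0.235 CPM. *Mmp21* was not tested.

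Of 12 regulators and partners of these proteases, *Furin*, the proprotein convertase that activates MT1-MMP and stromelysin-3, rose with all 4 ligands in LacZ fibroblasts (0.45 to 1.37, edgeR adjusted p from 3.69e-06 to 0.0298), as did *Cd44*, a hyaluronan receptor that holds MT1-MMP and MMP-9 at the cell surface (1.66 to 2.75). TGFβ raised 4 of the 12 in LacZ and 6 in iCre fibroblasts and lowered 2 and 3, beside 36.9% and 37.4% of all genes called, among them *Reck*, a membrane-anchored MMP inhibitor, which fell by 0.95 and 1.32 (adjusted p = 0.000131 and 5.39e-05). With the block 8 and 10 of the 12 passed, beside 42% and 41.5%. With IL-1β 5 rose and 2 fell where TAK1 was intact, beside 20.7% of all genes. *Lcn2*, a lipocalin whose human form binds MMP-9, went from 3.82 CPM ± 1.88 to 2995 ± 833 with IL-1β in LacZ and from 2.53 ± 0.809 to 414 ± 122 in iCre fibroblasts (SD, n = 4), an interaction of -2.27 (SE 0.48, adjusted p = 0.00701). *Cd44* also had an interaction with IL-1β (-1.41, adjusted p = 0.000312), and no other interaction of the 12 passed the unblocked test. The blocked fit added *Pcsk6* (0.72, adjusted p = 0.0126) and *Thbs1* (0.86, adjusted p = 0.0102) with IL-1β, *Bsg* (0.43, adjusted p = 0.00635), *Cav1* (0.52, adjusted p = 0.0158) and *Reck* (-0.92, adjusted p = 0.00924) with TNFα, and *Cd44* (-0.93, adjusted p = 0.0499) with TGFβ, beside 16.9%, 25.1% and 8.04% of all genes. With GC correction in the same fit *Pcsk6* (0.53, adjusted p = 0.0762), *Bsg* (0.18, adjusted p = 0.251) and *Cd44* with TGFβ (-0.78, adjusted p = 0.152) did not pass, and *Furin* (-0.41), *Pcsk5* (-0.74) and *Cav1* (0.58) with IL-1β did. Between iCre and LacZ fibroblasts 1 of the 12 was higher (*Thbs1*) and 3 lower (*Pcsk5*, *Cd44*, *Lcn2*) with IL-1β, and 2 higher (*Furin*, *Cav1*) and 2 lower (*Pcsk5*, *Pcsk6*) with TNFα, 4 of 12 each time beside 16.1% and 27.3% of all genes. Under the block 9 of the 12 passed with IL-1β (29.5% of all genes) and 7 with TNFα (32.2%). In CTRL 0 of the 12 passed edgeR's unblocked test, and 8 passed with the block (14.5% of all genes). There 6 had an unadjusted p under 0.05, beside 3538 of the 25210 genes tested, and DESeq2 called 4, beside 1346 of 24880 genes.

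The genes whose pattern over the 10 group means was most like that of a member, out of 13089 compared (mean level no lower than 1 CPM), differed from member to member. For *Mmp2* the closest was *Inha* (Pearson r of log2 CPM 0.987), for *Mmp9* *Wbp2* (0.950), for *Mmp11* *Cdip1* (0.980), for *Mmp14* *Pcid2* (0.975) and for *Mmp23* *Castor1* (0.960). For *Timp1* it was *Zfp689* (0.950), for *Timp2* *Mgme1* (0.990) and for *Timp3* *Pmaip1* (0.980). The 3 closest to *Mmp19* were *Rgs2*, *Irs2* and *Spry2* (0.957, 0.956 and 0.955). Each rests on 10 points that share libraries, and over the 40 single libraries the r of the nearest gene of each member ran lower, from 0.603 for *Zfp689* and 0.653 for *Pcid2* to 0.888 for *Rgs2*. Among the 9 members other than *Timp4* the highest correlation was that of *Timp1* with *Mmp14* (0.85) and the lowest that of *Mmp23* with *Mmp19* (-0.67).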

How the data were processed

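The data were poly-A RNA-seq libraries of cultured fibroblasts, 4 per group in 10 groups. The authors aligned single-end reads to mm10/GRCm38, and the table they deposited holds raw read counts per Ensembl gene. Per the labels' processing notes FastQC 0.10.1 and HTSeq 0.10.0 were used. The strand setting is not given in the sources used here. Of 55414 gene IDs, 52133 were in GENCODE M21 and these held 99.59% of the counts. CPM values were counts over the library's total (25360947 to 66160732) multiplied by its TMM factor (0.793 to 1.142).

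A gene needed 10 counts or more, summed over the 40 libraries, to be tested with edgeR 4.0.16 (R 4.3.3, TMM scaling, quasi-likelihood test, Benjamini-Hochberg adjustment over 25210 genes, threshold 0.05), 19 comparisons in all, with only the compared groups in each fit. The code was tested on simulated counts. Alternatives were DESeq2 1.42.0, RLE scaling, other filters, GC correction, a term for the library number range, all 40 libraries in one fit, protein-coding genes only, leaving out each replicate number, and replicate number as a block. The study describes its 4 samples per group as biological replicates. The labels do not say whether libraries with the same number share an animal or a culture. Deviations from the group means correlated in all 60 same-numbered pairs checked (r from 0.332 to 0.861 over 13090 genes, mean 0.55, against -0.16 for other numbers), so the numbers were taken to pair the samples. Deviations of log2 CPM from each gene's mean over the 40 libraries had a slope per 10% GC of 0.19 to 0.32 log2 units in the 12 iCre libraries given TGFβ, IL-1β or TNFα and of -0.23 to 0.00 in the other 28 (12298 genes). No libraries were duplicates.

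Ratios were compared by exact permutation of log2 ratios of CPM. Correlations used log2 of CPM plus a pseudocount of 0.5. Promoter windows came from RefSeq (GRCm38.p6). The members, gene lists and markers were chosen with earlier results of these data known. All members were named whatever their values. The targeted gene, neighbours that overlap a member, genes of the lists of other MMPs and of regulators and the 3 genes most alike in pattern to each member could be named too, and some of them are not.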

Additional observations from a re-analysis of the deposited data

Results flagged for a closer look

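Within groups of 4 replicates, 8 of 100 gene and group combinations held a library whose gap to the nearest other was larger, relative to the group's range, than Dixon's critical value at the 95% level. In 4 of the 8 the other libraries were all at 0, where any library with a read meets the criterion, so the total is not set against the about 1 in 20 that chance gives. Replicate 2 was such a library for *Mmp11* in LacZ TGFβ (86.2 CPM, the others 27.8 to 36.2) and in iCre TGFβ (103 CPM, the others 36.8 to 41.9), and for *Timp1* in LacZ bFGF (439 CPM, the others 974 to 1083). Without replicate 2 the difference of *Timp1* between bFGF and CTRL in LacZ fibroblasts passed edgeR's test (0.76, adjusted p = 0.000357). The other 5 were single libraries of *Timp4* with few reads. They were replicate 3 of LacZ TGFβ (0.0267 CPM), replicate 2 of LacZ IL-1β (0.0814 CPM), replicate 2 of LacZ TNFα (0.035 CPM) and replicate 3 of iCre TNFα (0.0389 CPM), each beside 3 libraries at 0, and replicate 2 of iCre IL-1β (0.364 CPM, the others 0 to 0.0187).

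In edgeR's unblocked interaction test the effect of a ligand differed between iCre and LacZ fibroblasts in 2 of 40 tests, beside 7.08% of all gene tests. They were *Timp1* with TNFα (1.73, adjusted p = 0.00318) and *Mmp11* with IL-1β (1.12, adjusted p = 0.0381). The call of *Timp1* was lost without replicate 3. That of *Mmp11* was lost without replicate 1, 3 or 4, with GC correction and in a fit of all 40 libraries.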

How the results depend on the processing

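Of 45 results called in these comparisons, 26 kept direction and call under every alternative run, and 19 lost the call under at least one, 12 of them only on leaving out a replicate. With replicate number as a block, 32 ligand effects passed in LacZ fibroblasts (17 without it), 29 in iCre fibroblasts (15), 24 differences between iCre and LacZ (7), 11 interactions (2) and 13 differences between IL-1β and TNFα (4), while the share of all gene tests called went from 22.6% to 34.6%, 20.8% to 32%, 10.4% to 22.2%, 7.08% to 12.5% and 6.14% to 20.6%. The block lost no call, and beyond the 64 it added it changed no other call. With GC correction and the block these counts were 32, 28, 21, 6 and 12 (34.9%, 30.3%, 17.6%, 9.32% and 20.7% of all gene tests), and GC correction alone left 1 interaction (4.35%). DESeq2 called 12 differences between iCre and LacZ (15.6%) and 7 between IL-1β and TNFα (11.5%). A term for library number range gave 4 interactions (8.4%) and a fit of all 40 libraries 1 (7.54%). Leaving out 1 replicate number at a time gave 12 to 29, 11 to 22, 2 to 11, 0 to 4 and 3 to 6, beside 11.8% to 25.5%, 12.1% to 24%, 4.24% to 11.5%, 2.26% to 6.41% and 1.86% to 7.4% of all gene tests. The lowest number of iCre and LacZ differences (2) came without replicate 3 and the highest (11) without replicate 2. Leaving out replicate 2 added 24 calls in all and replicate 1 added 2. *Mmp11* with TGFβ, 0.22 higher in iCre fibroblasts and not called, was at -0.03 with GC correction, with or without the block. The cause was not tested. Depth limits *Timp4* and, less, *Mmp9*.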
